A study of Arabidopsis thaliana with 12 samples.

Results

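NdhN (AT5G58260) and NdhS (AT4G23890) are nuclear genes for subunits of the NADH dehydrogenase-like (NDH) complex of plastids. They were followed in roots of the kn09 mutant and of the wild type (WT) of Arabidopsis thaliana. The array annotation assigns exactly 1 feature to NdhN alone and 1 to NdhS alone, so 2 of 3439 features, and 2 of the 692 that carry a single gene, are described here. Both features gave a value above 0 in all 12 samples. Probe sequences were not used here, so each result holds for the gene only as far as the annotation does.

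The kn09 group and the WT group had 6 samples each, all total RNA from roots in the Wassilevskija background. Every sample, mutant or wild type, came from roots given MS medium and 100 mM glucose for 48 h, so no group without glucose was available as a baseline. The labels call kn09 hypersensitive to proline and defective in its breakdown in mitochondria, and say nothing further of its allele. Samples are numbered 1 to 6 within a genotype, with no statement on whether they are separate cultures, RNA preparations or repeat readings, and p-values therefore measure a spread that may be technical.

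The NDH complex sits in the thylakoid membrane and is related to complex I of the respiratory chain. It takes electrons from ferredoxin and passes them to plastoquinone, and is known for cyclic electron flow around photosystem I and for chlororespiration, the reduction of plastoquinone in the dark. Its subunits are encoded partly in the plastid genome and partly in the nucleus. NdhN is a stromal subunit of the arm called subcomplex A, and NdhS forms the site where ferredoxin binds. The complex has been studied mainly in leaves, and root plastids mostly do not photosynthesise.

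The values are intensities on a scale where the brightest features of each sample stand at 100. The sample median over all features was 0.102 to 0.121 in kn09 and 0.139 to 0.227 in WT. In kn09, 398 to 522 features per sample stood at exactly 0, against 153 to 235 in WT. WT samples 5 and 6 had medians of 0.139 and 0.144, between kn09 and the other WT samples, which had 0.211 to 0.227. The root label could not be checked, since 0 of 15 root markers lay on a feature with 1 gene. Of 17 green tissue markers, only the light-harvesting gene LHB1B2 did, and it had 33.1 ± 6.78 in kn09 and 34.8 ± 5.44 in WT (SD, n = 6 each). Green tissue in the roots was not tested as a part of any result below.

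NdhS was lower in every kn09 sample than in every WT sample on the intensities as deposited. Its values in kn09 samples 1 to 6 were 6.27, 5.58, 6.14, 6.82, 6.23 and 6.49. In WT samples 1 to 6 they were 8.83, 9.01, 12.2, 11.4, 7.07 and 7.14. The kn09 values lay close together, while WT samples 3 and 4 were the highest of all and WT samples 5 and 6 came within a short distance of the kn09 maximum. The means were 6.26 ± 0.409 in kn09 and 9.27 ± 2.13 in WT (SD, n = 6 each). Their difference of -3.02 had an exact 2-sided permutation p of 0.00216, the smallest that 6 samples against 6 allow, and of 0.0129 after Benjamini-Hochberg adjustment over all 3439 features. NdhS thus fell in kn09 on this scale. The difference was -1.76 without WT samples 3 and 4 and -4.10 without WT samples 5 and 6. Each had an exact permutation p of 0.00476, the smallest possible there. Without kn09 samples 1 and 2, 3 and 4, and 5 and 6 the difference was -2.85, -3.13 and -3.07. The exact permutation p was then 0.0333, 0.0190 and 0.0238. Many other features were also lower in kn09 on this scale. Among all features 15.4% had every kn09 sample below every WT sample, and 32.7% passed the same adjusted exact test as lower. In bulk RNA, fewer cells that express a gene and less RNA per cell cannot be told apart.

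NdhN did not separate the genotypes as deposited. It had 0.0982, 0.151, 0.131, 0.162, 0.217 and 0.199 in kn09 samples 1 to 6. In WT samples 1 to 6 it had 0.180, 0.152, 0.184, 0.193, 0.115 and 0.184. The kn09 samples held both the lowest and the highest of the 12 values, and the whole WT range lay inside that of kn09. The means were 0.160 ± 0.0437 in kn09 and 0.168 ± 0.0296 in WT (SD, n = 6 each), with an exact 2-sided permutation p of 0.69, or 0.774 adjusted over all features.

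**Figure D1:**
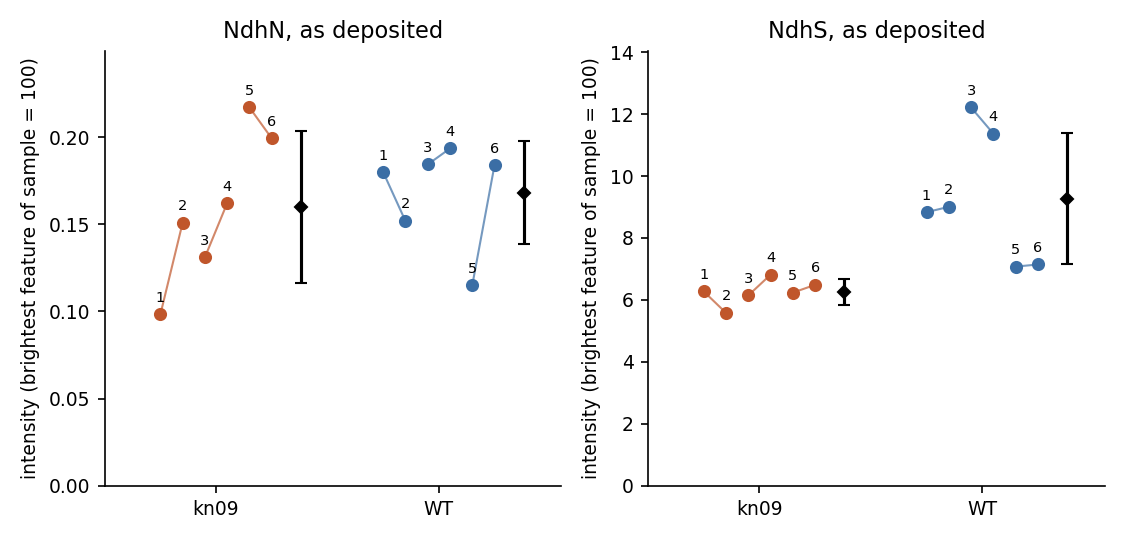
Deposited intensity of NdhN (left) and NdhS (right) in 6 kn09 and 6 WT samples, on linear axes from 0 with the brightest feature of a sample at 100. Points are samples with their label number, lines join consecutively numbered samples, and diamonds with bars are means with SD. All NdhS points of kn09 lie below those of WT, at 5.58 to 6.82 against 7.07 to 12.2, while the NdhN points overlap.

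A rank does not depend on how a sample was scaled, and it placed the genes differently. Counted from 1 for the brightest of 3439 features, NdhS stood at rank 80, 87, 90, 80, 89 and 86 in kn09 samples 1 to 6. Its ranks in WT samples 1 to 6 were 53, 52, 40, 47, 80 and 85. WT samples 1 to 4 placed NdhS well above all kn09 samples, whereas WT samples 5 and 6 lay inside the kn09 range. The mean rank was 85.3 ± 4.37 in kn09 and 59.5 ± 18.5 in WT (SD, n = 6 each). The exact 2-sided permutation p was 0.013 and became 0.0713 after adjustment over all features, so this difference did not pass. Among the 692 single-gene features the mean rank of NdhS differed by only 1.17 places (exact 2-sided permutation p = 0.279), its ranks being 9 to 12 in kn09 and 8 to 12 in WT.

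NdhN ranked brighter on average in kn09, although its deposited intensities overlapped. Its ranks were 1781, 1380, 1635, 1437, 1133 and 1198 in kn09 samples 1 to 6. They were 1922, 2168, 1976, 1866, 1907 and 1484 in WT samples 1 to 6. Only WT sample 6 reached into the kn09 range, and kn09 samples 5 and 6 were the highest placed. In these terms 32.9% to 51.8% of features were brighter than NdhN in a kn09 sample, against 43.1% to 63.0% in a WT sample. The mean rank was 1427 ± 248.9 in kn09 and 1887 ± 224.2 in WT (SD, n = 6 each). The exact 2-sided permutation p was again 0.013, with 0.0713 after adjustment over all features. By rank 0 of these 2 genes passed the adjusted test, where 14.2% of all features did. Among single-gene features NdhN stood at rank 193 to 312 in kn09 and 271 to 413 in WT, a mean difference of -102.3 places (exact 2-sided permutation p = 0.00649, unadjusted).

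**Figure D2:**
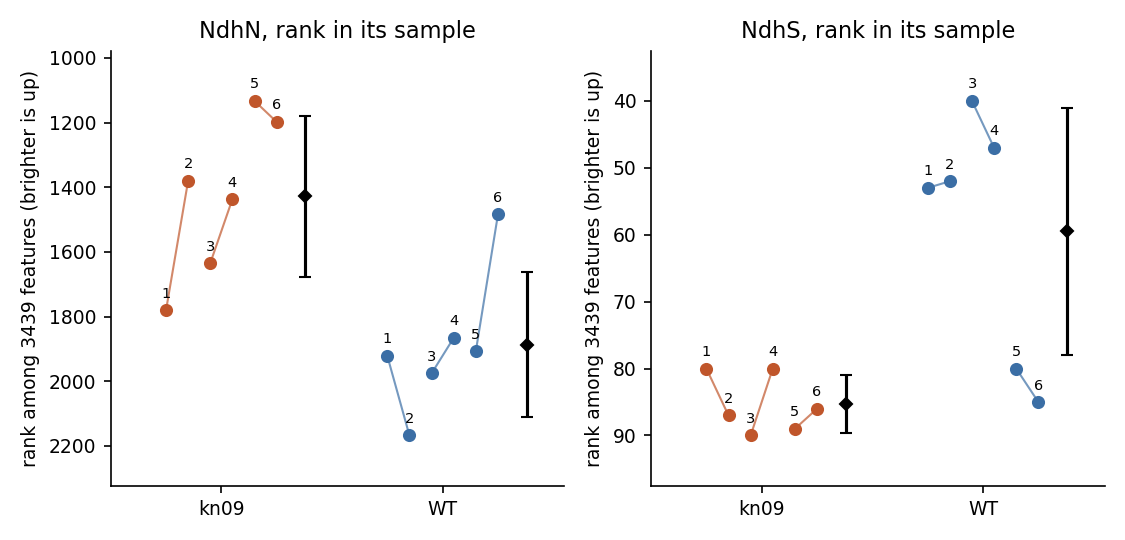
Rank of NdhN (left) and NdhS (right) among 3439 features within each sample, with brighter ranks towards the top of each linear axis. Points, lines and diamonds with bars stand for samples, consecutive samples, and means with SD. NdhS is at 80 to 90 in kn09 and at 40 to 53 in WT samples 1 to 4, with WT samples 5 and 6 at 80 and 85.

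After quantile normalization, which gives every sample the same distribution of intensities, the genes lay on opposite sides of 0. A normalized value is set by the rank of the feature in its sample, so these results are not independent of those by rank. NdhN had a log2 difference, kn09 minus WT, of 0.68 ± 0.23 (SE), a 1.598-fold higher value in kn09, with a 95% interval of 0.19 to 1.17. Without kn09 samples 5 and 6 it was 0.46. Its normalized log2 intensity was -2.28 ± 0.38 in kn09 and -2.96 ± 0.32 in WT (SD, n = 6 each). NdhS had a log2 difference of -0.55 ± 0.20 (SE), or 0.682 times the WT value, with a 95% interval of -0.99 to -0.11. Its normalized log2 intensity was 2.66 ± 0.08 in kn09 and 3.21 ± 0.41 in WT (SD, n = 6 each). In limma the adjusted p over all features was 0.0677 for NdhN and 0.0914 for NdhS, so neither passed 0.05. Their unadjusted p was 0.0111 and 0.0182, in a fit where 1040 of 3439 features had an unadjusted p under 0.05. Among all features 12.8% passed, against 0 of these 2 genes. When only the 2193 features above 0 in all samples were tested, NdhN passed as higher (adjusted p = 0.0382) with the same difference, where 14.1% of features did.

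The groups overlapped for both genes on the normalized scale. NdhN ranged from -2.81 to -1.82 in kn09 and from -3.37 to -2.38 in WT. NdhS ranged from 2.57 to 2.75 in kn09 and from 2.67 to 3.72 in WT. WT samples 5 and 6, at 2.75 and 2.67 for NdhS, were level with kn09, as follows from their ranks of 80 and 85. The normalized difference of NdhS therefore came from WT samples 1 to 4, at 3.31, 3.34, 3.72 and 3.47. Those samples also had the highest medians over all features, and the part of that in the NdhS difference was not tested. Without WT samples 5 and 6 the log2 difference of NdhS was -0.81 and passed in limma (adjusted p = 0.0222), in a fit where 2.56% of features passed as lower. Without WT samples 3 and 4 it was -0.35 and did not (adjusted p = 0.286).

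The size of each difference depended on the scale, and where its sign changed the value was smaller than its SE. The log2 difference of NdhN was -0.10 ± 0.23 (SE) without normalization, 0.44 ± 0.24 (SE) when samples were divided by their median over features above 0, and 0.46 ± 0.22 (SE) when they were divided by their 75th percentile. None of these passed in limma (adjusted p = 0.752, 0.201 and 0.157). NdhS had -0.54 ± 0.18 (SE) as deposited, which passed in limma (adjusted p = 0.0387), where 33.7% of all features passed as lower. With median scaling its difference was 0.00 ± 0.16 (SE), with a 95% interval of -0.34 to 0.35, and with 75th percentile scaling 0.02 ± 0.15 (SE). Divided by the sample median over features above 0, NdhS stood at 43.7 ± 2.55 times that median in kn09 and 43.8 ± 5.14 times in WT (SD, n = 6 each). This median leaves out the features at 0, of which kn09 samples had 398 to 522 and WT samples 153 to 235. It is therefore not the median over all features given above. NdhN stood at 1.12 ± 0.330 times the median over features above 0 in kn09 and 0.808 ± 0.175 times in WT (SD, n = 6 each).

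The median log2 difference of all features also moved with the scale. It was -0.06 after quantile normalization, -0.85 as deposited, -0.34 with median scaling and -0.32 with 75th percentile scaling. Relative to that median, NdhN was higher in kn09 by 0.74, 0.76, 0.78 and 0.78 in the same order. NdhS was at -0.49 relative to it after quantile normalization, and at 0.32, 0.34 and 0.34 on the other scales. The last 3 scales differ only by a factor per sample and so give nearly the same relative value by construction. Between them and quantile normalization the sign relative to the median feature was positive both times for NdhN and changed for NdhS.

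**Figure D3:**
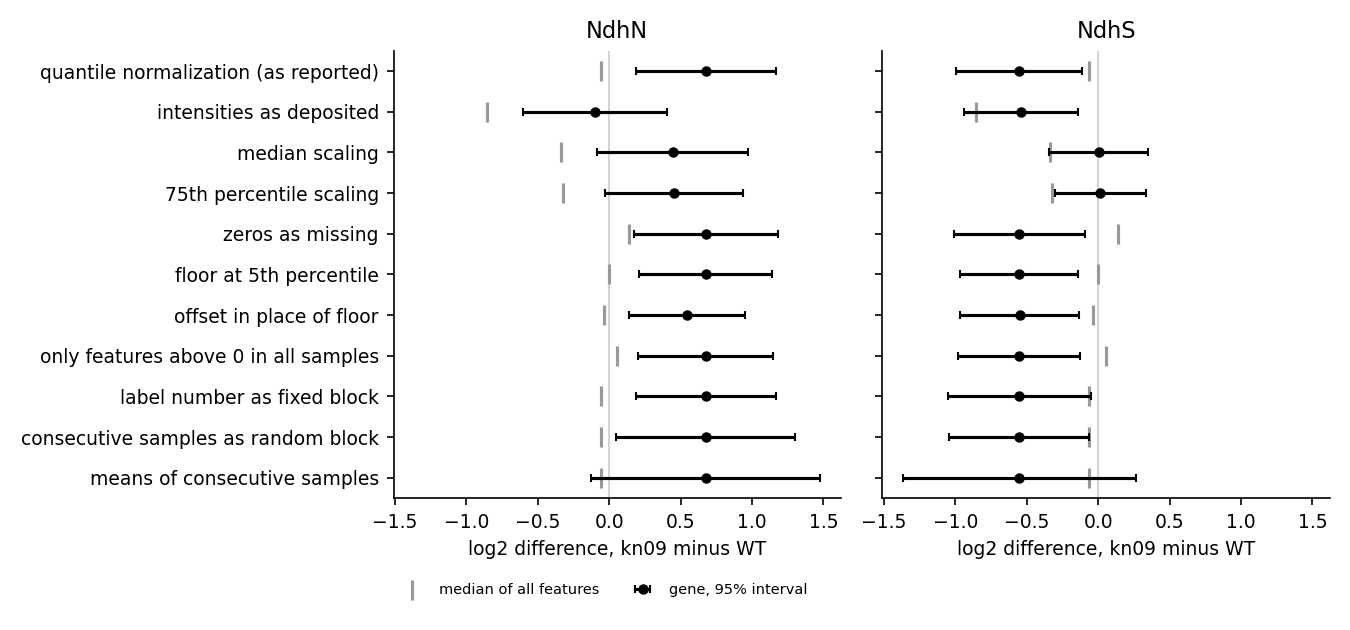
Log2 difference of NdhN (left) and NdhS (right), kn09 minus WT, under different ways of scaling, flooring, filtering or blocking. Points with bars are limma estimates with 95% intervals, and grey ticks mark the median difference of all features in the same fit. NdhN changes from 0.68 to -0.10 on the deposited values, and NdhS from -0.55 to about 0 with median or 75th percentile scaling.

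Features of like brightness gave a nearer background. Within 2-fold of the mean NdhN intensity of 0.164 lay 1057 other features above 0 in all samples, with a median log2 difference of -0.81 as deposited and an interquartile range of -1.34 to -0.25. NdhN at -0.10 stood above 81.0% of them. Within 2-fold of the mean NdhS intensity of 7.76 lay 108 such features, with a median of -0.03 as deposited and an interquartile range of -0.47 to 0.50. NdhS at -0.54 stood below 80.6% of them. Dim features were thus mostly lower in kn09 as deposited while bright ones were not, and each gene lay toward the opposite side of its own class. After normalization the medians of these classes were 0.04 and 0.01, with NdhN above 80.0% and NdhS below 82.4% of their class. These shares are descriptions and carry no test.

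The log2 ratio of NdhS over NdhN within a sample asked whether the genes changed unequally, since a scale factor for a whole sample cancels in it. A difference that varies with brightness does not cancel. As deposited, features of like brightness to NdhN had a median log2 difference of -0.81, and those like NdhS -0.03. The ratio was not set against such a background. On deposited values it was 5.997, 5.21, 5.55, 5.39, 4.84 and 5.02 in kn09 samples 1 to 6. In WT samples 1 to 6 it was 5.62, 5.89, 6.05, 5.88, 5.94 and 5.28. Most kn09 samples were lower than most WT samples, but kn09 sample 1 was higher than all WT samples except sample 3. The means were 5.34 ± 0.41 in kn09 and 5.78 ± 0.28 in WT (SD, n = 6 each), a difference of -0.44 with an exact 2-sided permutation p of 0.0606. The unequal change was therefore not shown on all deposited values. It varied with the samples used, being -0.57 without kn09 sample 1 (exact permutation p = 0.0152) and -0.54 without WT sample 6 (exact permutation p = 0.0303), but -0.34 without kn09 sample 5 (exact permutation p = 0.119). Without kn09 samples 5 and 6 it was -0.24 (exact permutation p = 0.257).

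After quantile normalization the same ratio was 4.94 ± 0.41 in kn09 and 6.17 ± 0.66 in WT (SD, n = 6 each). That difference of -1.23 had an exact 2-sided permutation p of 0.00866, unadjusted. It is an alternative to the main ratio test on deposited values, which did not pass. WT samples 5 and 6, at 5.73 and 5.05, were the lowest of WT, and sample 6 lay inside the kn09 range of 4.41 to 5.55. The larger difference on this scale came mainly from NdhN, whose log2 difference was 0.68 normalized and -0.10 as deposited, against -0.55 and -0.54 for NdhS. The ratio compares change and says nothing about which gene had more transcript, because features differ in their probes.

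**Figure D4:**
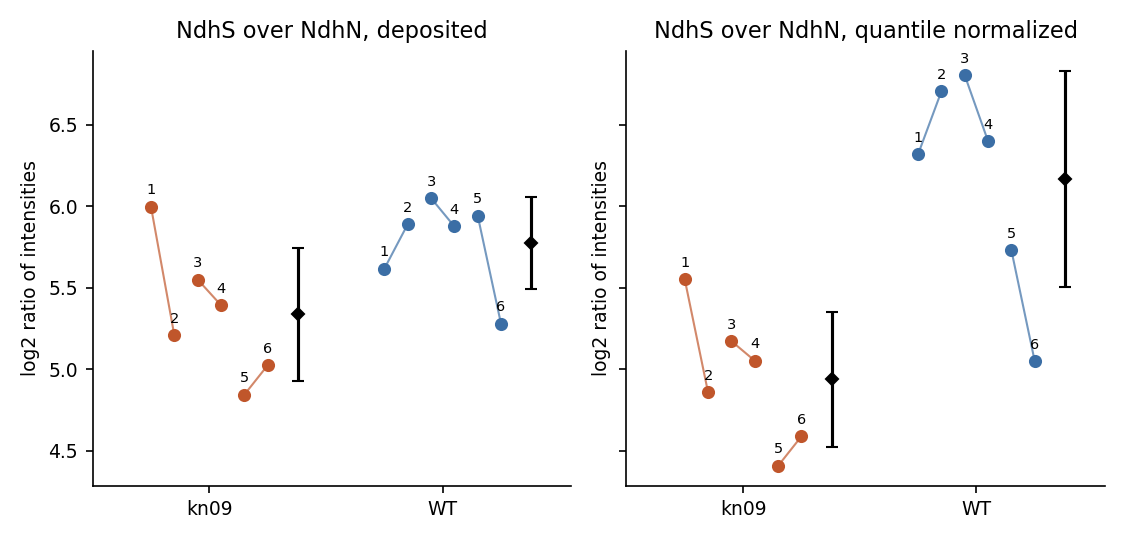
Log2 ratio of NdhS over NdhN intensity within each sample, as deposited (left) and after quantile normalization (right), on a shared axis. Points are samples with their label number, lines join consecutive samples, and diamonds with bars are means with SD. The difference, kn09 minus WT, is -0.44 on the left, where kn09 sample 1 is among the highest, and -1.23 on the right.

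The spread between samples differed between the genes and between the genotypes. For NdhS the coefficient of variation of the deposited intensity was 6.54% in kn09 and 22.97% in WT. Its highest value was 1.22 times the lowest in kn09 and 1.73 times in WT. For NdhN the coefficient of variation was 27.3% in kn09 and 17.6% in WT, and the highest value was 2.21 times the lowest in kn09 and 1.68 times in WT. NdhS was thus steadier in kn09, and NdhN in WT. Features of like brightness to NdhS had a median coefficient of variation of 15.9% in kn09 and 25.8% in WT, and those like NdhN had 40.0% in kn09 and 38.3% in WT. In the NdhS class 9.26% of features were steadier than NdhS in kn09 and 37.96% in WT. In the NdhN class 22.2% were steadier than NdhN in kn09 and 6.15% in WT. Of 2193 features above 0 in all samples, 57.7% had the lower coefficient in kn09. The difference in spread was not tested.

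Consecutively numbered samples were close for NdhS. In kn09 the higher value of a pair was 1.12, 1.11 and 1.04 times the lower, and the pair means were 5.93, 6.48 and 6.36. In WT it was 1.02, 1.07 and 1.01 times the lower, while the pair means were 8.92, 11.8 and 7.11. The WT spread of NdhS thus lay between pairs of samples and hardly within them. NdhN showed the reverse in places, with a ratio of 1.54 within kn09 samples 1 and 2 and of 1.60 within WT samples 5 and 6. Its pair means were 0.125, 0.147 and 0.208 in kn09 and 0.166, 0.189 and 0.149 in WT. If pairs are repeat readings, each genotype has 3 values, and the exact test of NdhS on deposited pair means gives 0.1, the smallest p that 3 against 3 allow. With pairs as a random block in limma, the adjusted p was 0.211 for NdhN and 0.19 for NdhS. The correlation within pairs that this fit estimated over all features was 0.476. Tests that count the 12 samples as separate take no account of it.

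The rest of the NDH complex was barely represented. Of 30 loci listed for NDH subunits, 18 were in the reference table used for matching, and those of the plastid genome were not looked up. Among the 18, only NdhN and NdhS lay on a feature with a single gene, and 0 lay on features with several. Of 13 loci for assembly of the complex or processing of its transcripts, 2 were measured. CRR41, which assists the assembly of subcomplex A, had a deposited mean of 0.197 ± 0.0456 in kn09 and 0.235 ± 0.110 in WT (SD, n = 6 each). Its log2 difference was 0.52 ± 0.31 (SE) after quantile normalization and -0.16 as deposited. CRR21, a pentatricopeptide repeat protein for editing of a plastid ndh transcript, had a deposited mean of 0.169 ± 0.0813 in kn09 and 0.254 ± 0.125 in WT (SD, n = 6 each). Its log2 difference was 0.10 ± 0.36 (SE) after quantile normalization and -0.59 as deposited. Of 10 loci for ferredoxins, their reductases and the other route of cyclic flow, 0 were measured on a feature with a single gene. No statement on the complex as a whole can be made from these features.

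Few genes of related complexes were measured. Their log2 differences are after quantile normalization unless given as deposited. Of 29 listed loci of mitochondrial complex I, the respiratory relative of NDH, 2 were measured. AT4G02580 had a log2 difference of -0.70 ± 0.45 (SE), and -1.70 as deposited. AT5G47890, with 1 kn09 sample at 0, had 0.17 ± 0.90 (SE), and -0.96 as deposited. A search of gene names for photosynthetic electron transport added PSBY, PSBW and LHB1B2 of photosystem II and its antenna. They had log2 differences of 0.58 ± 0.19, 0.16 ± 0.19 and -0.24 ± 0.22 (SE), and 0.40, 0.42 and -0.08 as deposited. In limma 0 of the 7 further genes given here, CRR41 and CRR21 included, passed in either direction, too few to set against the 12.8% of all features that did (smallest adjusted p = 0.0654, for PSBY, which had an unadjusted p of 0.0102). Their median log2 difference was 0.16, against -0.06 for all features.

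**Figure D5:**
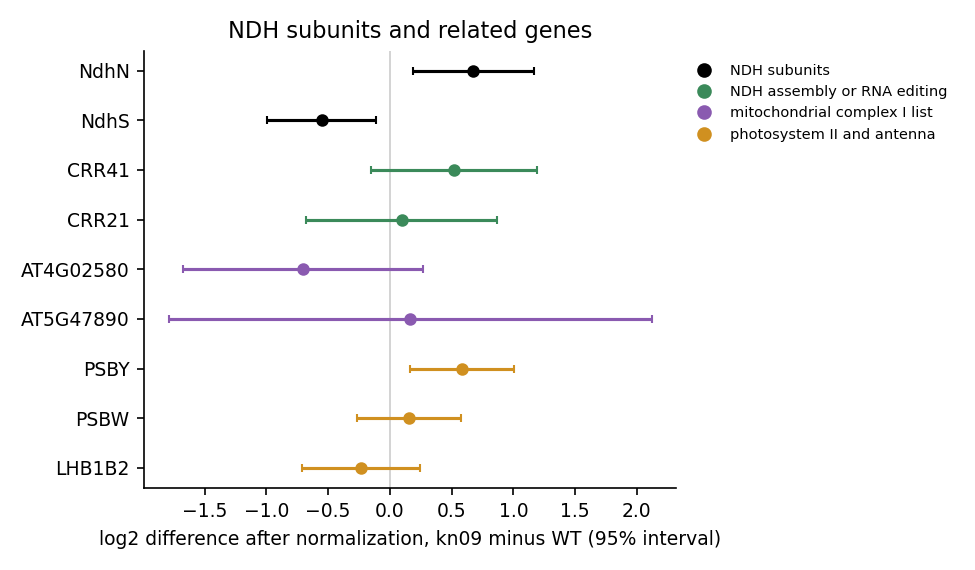
Log2 difference after quantile normalization, kn09 minus WT, for NdhN, NdhS and 7 related genes, as limma estimates with 95% intervals. Colours mark NDH subunits, NDH assembly or RNA editing, the mitochondrial complex I list, and photosystem II with its antenna. Before adjustment for the number of features, NdhN at 0.68 and PSBY at 0.58 have intervals above 0, and NdhS at -0.55 has one below 0. Such intervals were common, as the same limma fit gave 1040 of the 3439 features an unadjusted p below 0.05.

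Likeness of pattern was measured as the root mean square difference, over the 12 samples, between normalized log2 values centred on each gene's own mean, among 416 other single-gene features above 0 in all samples. Nearest to NdhS was PPDK, a pyruvate, phosphate dikinase, at 0.23, followed by AT3G54930 at 0.26 and CCL at 0.29, where the median over all compared was 0.71. PPDK had a deposited mean of 0.180 ± 0.0350 in kn09 and 0.393 ± 0.163 in WT (SD, n = 6 each). After normalization its log2 difference was -0.41 ± 0.23 (SE) and did not pass in limma (adjusted p = 0.248). AT3G54930 fell in limma (log2 difference -0.78 ± 0.14 SE, adjusted p = 0.00808), with 4.05 ± 0.388 in kn09 and 7.02 ± 0.624 in WT (SD, n = 6 each). CCL had a log2 difference of -0.19 ± 0.27 (SE). These genes were picked over the same 12 samples, genotype difference included. Their direction follows in part from that choice and is no separate result. In limma 12.8% of all features passed in either direction.

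Nearest to NdhN was CYN, a cyanase, at 0.30, followed by AT3G57440 at 0.31 and FATB, an acyl-ACP thioesterase of plastid fatty acid synthesis, at 0.35, where the median over all compared was 0.77. CYN rose in limma (log2 difference 0.68 ± 0.18 SE, adjusted p = 0.0344), with 2.003 ± 0.345 in kn09 and 1.52 ± 0.326 in WT (SD, n = 6 each). FATB also rose (log2 difference 0.82 ± 0.16 SE, adjusted p = 0.0102), and AT3G57440 had 0.42 ± 0.20 (SE). As for NdhS, the choice of these genes used their genotype difference, so that they rose with NdhN is no separate result. NdhN and NdhS themselves differed by 0.80 in this measure, more than the median gene did from either of them.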

How the data were processed

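Intensities on a linear scale, 1 per feature and sample, were used as deposited for 12 samples; the authors' scanning, background correction and scaling are not given in the sources used here. Groups came from the sample titles. No per-sample column was left aside (0 unused). Intensities were quantile normalized in limma 3.58.1 (R 4.3.3), and a floor at the 1st percentile of positive normalized values (0.0062) was applied to them and to zeros before log2. Neither gene was at 0 or at the floor in any sample. limma (lmFit, eBayes, 2-sided, genotype as the only term) was fitted over all 3439 features, with Benjamini-Hochberg adjustment and a threshold of 0.05. Exact permutation tests used all 924 labelings (Python 3.11.15) and were adjusted over all features, in place of the planned adjustment over the members' own tests. The ratio was tested on deposited values, with normalized values and left-out samples as alternatives, and all its p-values are unadjusted. The limma and exact tests were tested on simulated data. Gene names came from the platform annotation, and were matched through Entrez identifiers with the TAIR10.1 reference table (690 of 692 matched). No coordinates are printed, because no build is named for the array. The name search ran on symbols and synonyms. The rule for named genes took NdhN, NdhS, list and search members, and the 3 features nearest in pattern to each. The number of arrays limits the precision. The members and lists were chosen with earlier results of these data known. Alternatives were other scalings, floors, filters, blocks and left-out samples. Leaving out pairs of samples was chosen after seeing the data.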

Additional observations from a re-analysis of the deposited data

How the results depend on the processing

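In limma 440 of 3439 features passed, against 1257 on the intensities as deposited, 82 with consecutive samples as a random block, and 16 with their means. Leaving out single samples gave 192 to 507. Leaving out pairs, an alternative chosen after seeing the data, gave 130, 206 and 186 without kn09 samples 1 and 2, 3 and 4, and 5 and 6, and 827, 142 and 201 without the same WT pairs. For NdhN the log2 difference of 0.68 became -0.10 as deposited, and stayed 0.68 but passed (adjusted p = 0.0382) among only the 2193 features above 0 in all samples. For NdhS the difference of -0.55 became -0.54 and passed as deposited (adjusted p = 0.0387), 0.0042 with median scaling, 0.0159 with 75th percentile scaling, and -0.81 without WT samples 5 and 6 (adjusted p = 0.0222). Leaving out single samples gave 0.58 to 0.79 for NdhN and -0.66 to -0.45 for NdhS, and neither passed in any of these fits (adjusted p from 0.0505 for NdhN and 0.0625 for NdhS). The cause of these changes was not tested.

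The deposited NdhN difference of -0.00834 was -0.0198 to 0.00397 without single samples, 0.00927 without kn09 samples 1 and 2, 0.00206 without WT samples 3 and 4, and -0.0325 without kn09 samples 5 and 6. That of NdhS was -3.46 to -2.43 without single samples and -4.10 to -1.76 without pairs. With means of consecutive samples the differences of -3.02 for deposited NdhS, -459.8 for the NdhN rank and 25.8 for the NdhS rank each had an exact permutation p of 0.1, the smallest possible there. The NdhN rank difference was -540.5 to -401.0 without single samples and -328.9 without kn09 samples 5 and 6 (exact permutation p = 0.0571). The NdhS rank difference was 21.9 to 30.9 without single samples and 1.17 among single-gene features. The log2 ratio difference of -0.44 was -0.57 to -0.34 without single samples, -0.57 without kn09 samples 1 and 2, -0.24 without kn09 samples 5 and 6 (exact permutation p = 0.257), -0.35 without WT samples 3 and 4, and -1.23 on normalized values.

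With the label number as a replicate block, 211 features passed in limma, and NdhN and NdhS did not (adjusted p = 0.0868 and 0.138). Samples of the same number in kn09 and WT had deviations correlated at 0.0683 to 0.0995, and each of the 12 samples correlated best with its own number, a hint from the data that the labels do not explain. Labels were also swapped within numbers for 5 exact tests (deposited intensity and rank of each gene, deposited ratio). Each stayed on the same side of 0.05 before adjustment. Deposited NdhS and the rank of each gene had an exact swap p of 0.03125, the smallest that swaps allow. The exact swap p was 0.781 for deposited NdhN and 0.09375 for the ratio.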
